A study of Mus musculus with 8 samples.

Results

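The miR-181 family was examined through its 9 named mature arms in mouse bone marrow-derived macrophages, of 1907 mature miRNAs listed in the deposited tables. The members were taken by name: mmu-miR-181a-5p, mmu-miR-181a-1-3p, mmu-miR-181a-2-3p, mmu-miR-181b-5p, mmu-miR-181b-1-3p, mmu-miR-181b-2-3p, mmu-miR-181c-5p, mmu-miR-181c-3p and mmu-miR-181d-5p (the prefix for mouse is left out below). The rule itself uses no measured value. The tables also list miR-181d-3p, which is not among the 9 and had 0 counts in all 6 libraries.

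The macrophages were primary wild-type cells, with an age of 8 to 12 weeks in the labels and no strain named. Marrow precursors were differentiated for 6 days in L929 supernatant, the usual cell culture source of macrophage colony-stimulating factor. The control group had 3 small RNA libraries with no further agent, and the LPS group had 3 libraries from cells given LPS at 100 ng/ml for 3 h, a bacterial product recognised by Toll-like receptor 4. All 6 came from total RNA. Whether replicate libraries stem from different mice or dishes is not stated in the labels, so each p-value reflects spread among these 6 samples only and that spread may be technical. The series holds 2 further samples of a chromosome conformation assay, not analysed here.

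A miRNA gene is transcribed as a hairpin, from which the enzymes Drosha and Dicer cut a 5p and a 3p arm. Usually the arm retained in an Argonaute protein directs repression, mostly through its seed, bases 2 to 8, while the other arm is degraded. The miR-181 family is best known from lymphocyte development, where miR-181a tunes the sensitivity of the T cell receptor. miR-181b has been described as a brake on NF-κB signalling in endothelium, through the importin gene Kpna4. Whether the family responds to LPS in macrophages, and from which locus its arms come, are the questions addressed here.

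The sequences below come from RefSeq (assembly GRCm38.p6), and all 9 members matched by name. The 5p arms are shown because they carry the family's common seed, set in capitals.
miR-181a-5p: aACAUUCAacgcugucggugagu
miR-181b-5p: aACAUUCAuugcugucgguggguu
miR-181c-5p: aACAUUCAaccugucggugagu
miR-181d-5p: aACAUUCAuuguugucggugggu
All 4 share the seed ACAUUCA, and no other mouse miRNA of the RefSeq table has it. Positions are counted from 1 at the 5′ end of the first miRNA named. miR-181b-5p differs from miR-181a-5p by A9U, C10U and A21G and is 1 base longer. miR-181d-5p differs from miR-181b-5p by C12U alone and is 1 base shorter. miR-181c-5p equals miR-181a-5p without the base at position 11. The 4 arms therefore differ only 3′ of the seed.

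The 3p arms are shown because they tell the loci apart. Capitals again mark bases 2 to 8.
miR-181a-1-3p: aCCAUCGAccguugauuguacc
miR-181a-2-3p: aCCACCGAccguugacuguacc
miR-181c-3p: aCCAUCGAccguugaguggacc
miR-181b-1-3p: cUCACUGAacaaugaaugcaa
miR-181b-2-3p: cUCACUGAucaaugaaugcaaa
miR-181a-2-3p differs from miR-181a-1-3p by U5C and U16C, the first of which falls in the seed. miR-181c-3p differs from miR-181a-1-3p by U16G and U19G and so keeps its seed, CCAUCGA. miR-181b-2-3p differs from miR-181b-1-3p by A9U over their first 21 bases and is 1 base longer. None of the 3p seeds is shared with a miRNA outside the family.

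The 6 hairpins lie in 3 pairs on GRCm38.p6. Mir181a-1 and Mir181b-1 lie on chromosome 1 (chr1:137966455-137966718), with 97 bases between them, in no gene span of the RefSeq table. Mir181a-2 and Mir181b-2 lie on chromosome 2 (chr2:38852735-38853918), 1019 bases apart. The spans of Nr6a1, which encodes an orphan nuclear receptor, and of the long noncoding Nr6a1os cover this pair. The table gives spans only, so exon or intron is not stated. Mir181d and Mir181c lie on chromosome 8 (chr8:84178716-84178961), 85 bases apart and outside any other gene span. Their nearest annotated neighbour hairpin is Mir23a, at a distance of 29556 bases.

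Both a/b loci encode the same miR-181a-5p and the same miR-181b-5p. The hairpins that encode these arms are given next, to show what sets each pair apart, from 5′ to 3′ on the plus strand, with mature arms in capitals.
Mir181a-1: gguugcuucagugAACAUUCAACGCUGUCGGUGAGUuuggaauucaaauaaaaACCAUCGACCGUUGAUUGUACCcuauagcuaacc
Mir181a-2: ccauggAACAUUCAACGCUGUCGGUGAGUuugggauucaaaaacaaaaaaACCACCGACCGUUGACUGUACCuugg
Mir181b-1: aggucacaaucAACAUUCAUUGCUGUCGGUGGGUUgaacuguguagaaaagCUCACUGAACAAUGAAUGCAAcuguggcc
Mir181b-2: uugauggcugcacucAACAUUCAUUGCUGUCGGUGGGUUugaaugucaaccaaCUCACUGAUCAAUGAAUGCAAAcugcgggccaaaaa
After the 5p arm, the 2 miR-181a hairpins share 4 further bases, whereas the 2 miR-181b hairpins share 0. Before the arm they share 1 and 2 bases. A read of exactly miR-181a-5p or miR-181b-5p cannot be assigned to a locus, and how the authors counted such reads is not given in the sources used here.

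Library totals ranged from 3280688 to 4312555 counts, the lowest being LPS replicate 1. Levels are given in CPM, meaning counts divided by library size and rescaled to a shared total, with TMM factors that ranged from 0.96 to 1.053. The macrophage and myeloid list (7 arms, among them miR-223-3p and miR-22-3p) summed to 277300 to 301900 CPM in controls and 274400 to 322400 CPM after LPS, although 1 of its arms, miR-142a-3p, had 0 counts. The other arm of that hairpin, miR-142a-5p, had a control mean of 56270 CPM, and the part of read counting in the 0 was not tested. Most of the sum was miR-22-3p, with a control mean of 233000 CPM, whereas that of miR-223-3p was 2279 CPM. Of the 6 tested arms of the list 1 fell, miR-223-5p, to 0.551-fold (edgeR adjusted p = 0.00623), while 1.4% of all tested miRNAs fell. The part of the fall of miR-223-5p in the miR-181 levels was not tested. Among lymphocyte arms, miR-150-5p and miR-150-3p together reached 56.27 to 71.3 CPM in controls and 63.74 to 77.57 CPM after LPS. Nearly all of this was miR-150-5p, since miR-150-3p had 0 to 2 counts per library. The part of lymphocytes in the miR-181 levels was not tested. The 2 endothelial arms summed to at most 0.2425 CPM (miR-126a-5p at 0), the 3 erythroid arms to at most 1.583 (miR-144-3p at 0) and the 5 stromal arms to at most 2.206 (miR-145a-5p and miR-199a-5p at 0). In bulk RNA, fewer cells of a type and less RNA per cell cannot be told apart.

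The family was a small part of the deposited miRNA counts. Its 9 arms summed to 0.1097% ± 0.00998 of all counts in controls (SD, n = 3) and to 0.1041% ± 0.0166 after LPS, a difference of -0.00561 percentage points that is smaller than the control SD. Leaving out 1 library moved this difference between -0.0147 (without LPS replicate 2) and 0.00143 (without LPS replicate 1), and without control replicate 3 it was -0.0113, so it rests on single libraries. miR-181c-5p, the main arm of its hairpin, made up more than the other 8 arms together, with 55.4% ± 1.90 of the family's counts in controls and 57.8% ± 1.99 after LPS. miR-181a-5p and miR-181b-5p are each encoded by both a/b loci, and how such reads were counted is not given. The family total and these shares therefore describe the deposited counts only. The 8 arms with enough counts to test ranked from 66 (miR-181c-5p) to 327 (miR-181a-5p) by mean level among the 357 miRNAs tested. The mature arms are 21 to 24 bases long, so CPM are compared between arms without a length term. Capture efficiency of different sequences was not tested.

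Levels of the 5p arms, which share the seed, spanned a wide range. miR-181c-5p had 661.4, 578.2 and 548.6 CPM in the control libraries and 555.4, 665.1 and 607.1 CPM in the LPS libraries. The highest and the lowest library of each group nearly coincide, so the groups overlap throughout. miR-181b-5p, which both a/b loci encode, had 114.4, 126.9 and 94.34 CPM in controls and 103.2, 144.9 and 106.8 CPM after LPS. LPS replicate 2 held the highest value, and the other LPS libraries lay inside the control range. miR-181d-5p had 71.7, 47.82 and 50.2 CPM in controls and 47.18, 50.25 and 69.79 CPM after LPS. In each group 1 library was high and the other two were near 50 CPM.

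miR-181a-5p, the arm most often studied in lymphocytes, was the scarcest tested member by deposited counts. It had 14, 15 and 17 counts in controls and 10, 14 and 10 after LPS, which is 3.324 to 4.123 and 2.538 to 3.432 CPM. The groups overlap, and counts this low leave a wide counting error. Of the counts of the 4 seed-sharing 5p arms in controls, miR-181c-5p took 77.6% ± 1.13, miR-181b-5p 14.6% ± 1.90, miR-181d-5p 7.32% ± 1.06 and miR-181a-5p 0.488% ± 0.1. After LPS the shares were 77.5% ± 0.717, 14.97% ± 1.63, 7.12% ± 1.58 and 0.389% ± 0.0624, each within 1 control SD of its control mean. Because the counting of reads that match both a/b loci is unknown, these shares may differ from those in the cells.

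Of the 3p arms, miR-181a-1-3p was the most abundant and ranked second in the family. It had 261.6, 255.1 and 199.3 CPM in controls and 172.9, 253.2 and 196.7 CPM after LPS. LPS replicates 1 and 3 lay below all controls, while LPS replicate 2 lay within their range. miR-181a-2-3p, its counterpart from chromosome 2, had 45.82, 32.28 and 32.25 CPM in controls and 27.23, 40.45 and 30.96 CPM after LPS, with overlapping groups. miR-181c-3p had 23.74, 19.66 and 14.55 CPM in controls and 14.88, 24.51 and 17.0 CPM after LPS, again overlapping.

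The miR-181b hairpins gave few 3p reads. miR-181b-1-3p had 16.86, 15.78 and 13.1 CPM in controls and 11.08, 15.69 and 9.898 CPM after LPS. LPS replicates 1 and 3 were below the controls and LPS replicate 2 was within their range. miR-181b-2-3p had 1 count in all, in LPS replicate 3, where miR-181b-1-3p had 328 counts over the 6 libraries. Counts of 3 or fewer are at the limit of detection, which over all 23613388 counts is 0.127 CPM, so no fold change was computed for it.

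In order of control mean, the levels were 596.1 ± 58.5 CPM for miR-181c-5p, 238.7 ± 34.2 for miR-181a-1-3p, 111.9 ± 16.4 for miR-181b-5p and 56.6 ± 13.2 for miR-181d-5p (SD, n = 3). They went on with 36.8 ± 7.82 for miR-181a-2-3p, 19.3 ± 4.61 for miR-181c-3p, 15.2 ± 1.94 for miR-181b-1-3p and 3.70 ± 0.402 for miR-181a-5p. After LPS the order of means was unchanged. Over all 6 libraries the ranges of neighbours did not overlap except for miR-181c-3p and miR-181b-1-3p, and miR-181d-5p and miR-181a-2-3p came close (47.18 CPM at the lowest against 45.82 at the highest). miR-181c-3p was above miR-181b-1-3p within each of the 6 libraries.

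**Figure D1:**
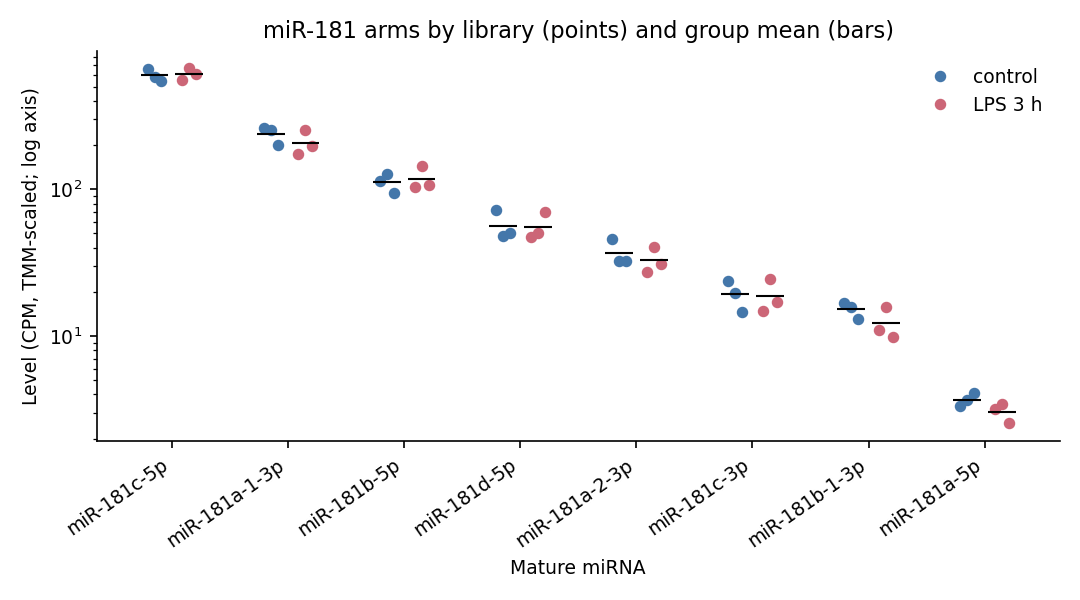
Levels of the 8 tested miR-181 arms in CPM on a log axis, with 1 point per library and a bar at each group mean (3 control and 3 LPS libraries). Control and LPS points overlap for each arm, and miR-181c-5p sits between 548.6 and 665.1 CPM; miR-181b-2-3p, with 1 count in all, is not drawn.

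LPS changed none of the 8 tested members by edgeR's quasi-likelihood test (0 of 8 called). The background was 18 of 357 miRNAs, or 5.04%. Adjusted p-values of the members ran from 0.815 to 0.998 by the Benjamini-Hochberg method over all 357. At an unadjusted p below 0.05 there were also 0 of 8, against 11.8% of all tested, and the lowest was 0.209. DESeq2 and limma-voom each called 0 as well. In none of the 8 did control and LPS libraries separate, which 16% of all tested miRNAs did. With 8 members, a count of 0 is near this background and sets the family apart from nothing.

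The size of change that these libraries leave possible differed between arms. Log2 fold changes (LPS over control) of the 5p arms were 0.03 (SE 0.12) for miR-181c-5p, 0.08 (SE 0.17) for miR-181b-5p, -0.02 (SE 0.21) for miR-181d-5p and -0.28 (SE 0.29) for miR-181a-5p. The 95% interval for miR-181c-5p ran from 0.847-fold to 1.23-fold, the narrowest of the family. That for miR-181a-5p, with 10 to 17 counts per library, ran from 0.526-fold to 1.29-fold. For miR-181b-5p it was 0.813-fold to 1.38-fold and for miR-181d-5p 0.714-fold to 1.36-fold.

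The 3p arms had log2 fold changes of -0.20 (SE 0.17) for miR-181a-1-3p, -0.16 (SE 0.21) for miR-181a-2-3p, -0.31 (SE 0.23) for miR-181b-1-3p and -0.03 (SE 0.25) for miR-181c-3p. Their 95% intervals were 0.675-fold to 1.12-fold, 0.646-fold to 1.24-fold, 0.562-fold to 1.15-fold and 0.663-fold to 1.44-fold in that order. Each interval includes no change. Without LPS replicate 2 the values of the a/b arms were farther from 0, at -0.36 for miR-181a-1-3p, -0.33 for miR-181a-2-3p and -0.54 for miR-181b-1-3p. They were nearest 0 without LPS replicate 3 for miR-181a-1-3p (-0.11) and miR-181b-1-3p (-0.13), and without control replicate 1 for miR-181a-2-3p (-0.01). Means were lower after LPS in 6 of 8 members, against 47.3% of all tested miRNAs, and the median log2 fold change was -0.10 for the members and 0.01 for all tested. Over the alternatives tried, the direction of miR-181b-5p, miR-181c-5p, miR-181c-3p and miR-181d-5p was not stable, and no alternative called a member.

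The same fit did register LPS responses elsewhere. miR-155-5p, which targets negative regulators of inflammatory signalling, had 1106, 282.5 and 682.2 CPM in controls and 5190, 4231 and 4479 CPM after LPS. Its LPS libraries lay far above its controls, with a log2 fold change of 2.75 (SE 0.38, edgeR adjusted p = 0.000981). Of a list of 25 miRNAs linked to Toll-like receptor and NF-κB signalling, 23 were tested, 9 rose (3.64% of all tested miRNAs rose), 1 fell (1.4% of all fell) and 13 did not pass. Their median log2 fold change was 0.28. The list was chosen with results of these data known, so its direction is not independent evidence. Of miR-146a, a known feedback miRNA, the 3p arm rose to 5.3-fold of its control level (edgeR adjusted p = 0.000326), while the main 5p arm did not pass (log2 fold change 0.21, SE 0.12, adjusted p = 0.664).

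**Figure D2:**
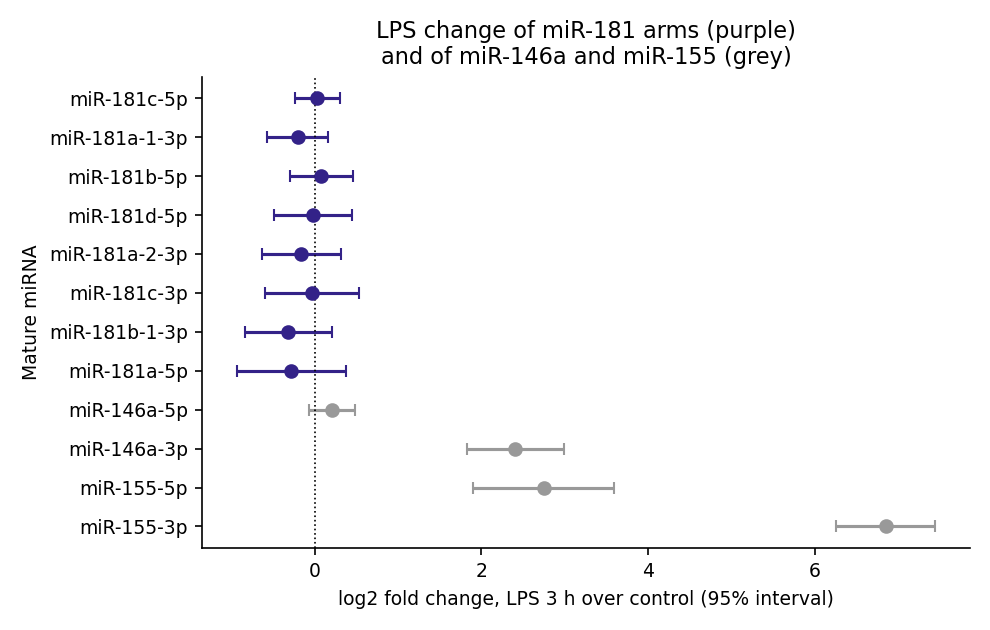
Log2 fold changes (LPS 3 h over control) with 95% intervals from the edgeR fit, for the 8 tested miR-181 arms in purple and for both arms of miR-146a and miR-155 in grey. All miR-181 intervals cover 0, the lowest bound being 0.526-fold for miR-181a-5p and the highest 1.44-fold for miR-181c-3p.

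The loci were compared next through the 3p arms that each of them alone encodes. The chromosome 1 pair gave most of these reads. Its summed 3p counts were 1173, 1116 and 876 in controls and 581, 1097 and 814 after LPS. The chromosome 2 pair had 193, 133 and 133 in controls and 86, 165 and 123 after LPS, nearly all from miR-181a-2-3p. The chromosome 8 pair, read through miR-181c-3p alone, had 100, 81 and 60 in controls and 47, 100 and 67 after LPS. In each of the 6 libraries the order was chromosome 1, then 2, then 8.

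As shares of all 3p counts of the family, the chromosome 1 locus held 82.0% ± 1.95 in controls and 81.0% ± 0.420 after LPS (SD, n = 3). Chromosome 2 held 11.9% ± 1.66 and 12.1% ± 0.105, and chromosome 8 held 6.17% ± 0.609 and 6.87% ± 0.415. Chromosome 8 was lowest by its 3p arm although its miR-181c-5p was the most abundant member, so the order by 3p arms need not be the order by total output. miR-181c-5p outnumbered miR-181c-3p by 31.7 ± 5.29 to 1 in controls and by 33.4 ± 5.48 to 1 after LPS.

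No ratio between loci separated the LPS libraries from the controls, and the test used could not have given a p below 0.1. The ratio of chromosome 1 to chromosome 2 3p counts was 6.08, 8.39 and 6.59 in controls and 6.76, 6.65 and 6.62 after LPS. The LPS libraries were nearly identical and lay within the control range. On the log2 scale the ratio differed by -0.06 (two-sided exact permutation p = 1.0). Without control replicate 2, the library with the ratio of 8.39, the sign turned (0.076).

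Chromosome 1 over chromosome 8 gave 11.7, 13.8 and 14.6 in controls and 12.4, 11.0 and 12.1 after LPS, a log2 difference of -0.17 (exact permutation p = 0.3). Control replicate 1 fell among the LPS libraries. Chromosome 2 over chromosome 8 gave 1.93, 1.64 and 2.22 in controls and 1.83, 1.65 and 1.84 after LPS, a log2 difference of -0.11 (exact permutation p = 0.5). All LPS values lay within the control range. Leaving out 1 library moved the difference between -0.264 (without control replicate 1) and -0.109 (without control replicate 3) for chromosome 1 over 8, and between -0.225 (without control replicate 2) and -0.01 (without control replicate 3) for chromosome 2 over 8. Adjusted over the 3 pairs of loci, the p-values were 1.0, 0.75 and 0.75, and since 3 libraries against 3 cannot give a p below 0.1, no shift could have passed 0.05 here.

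**Figure D3:**
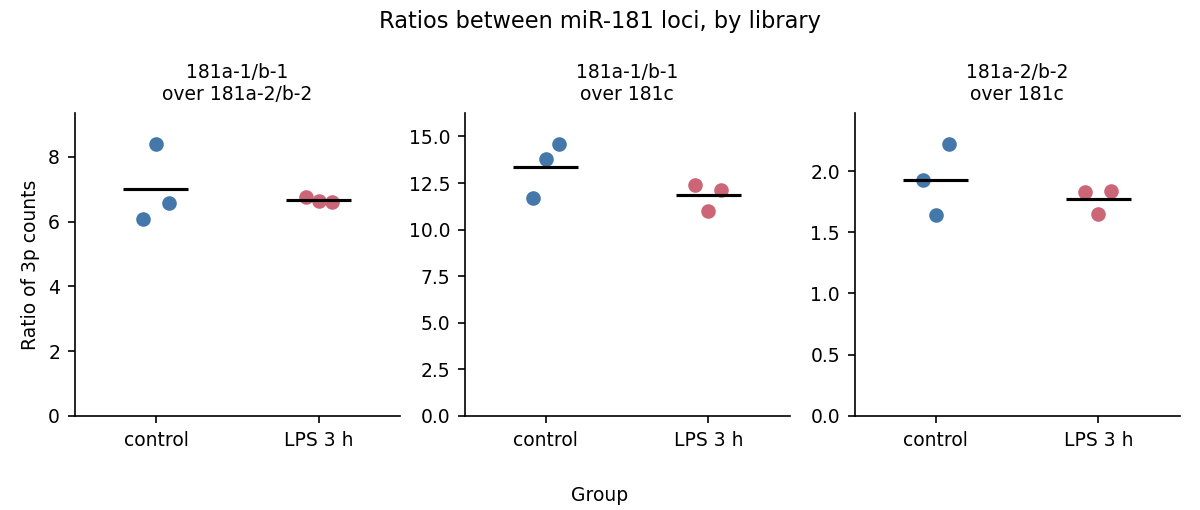
Ratios of locus-specific 3p counts between the 3 miR-181 loci, 1 point per library and a bar at the group mean, with each axis starting at 0. In the left and right panels the LPS points lie inside the control range, and in the middle panel control replicate 1 (11.7) lies among the LPS points (11.0 to 12.4).

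Neighbouring hairpins of a pair were compared by their ratio within each library. miR-181a-1-3p over miR-181b-1-3p was 15.5, 16.2 and 15.2 in controls and 15.6, 16.1 and 19.9 after LPS. All libraries but LPS replicate 3 lay between 15.2 and 16.2. miR-181c-5p over miR-181d-5p was 9.23, 12.1 and 10.9 in controls and 11.8, 13.2 and 8.7 after LPS. The lowest ratios, in control replicate 1 and LPS replicate 3, belong to the libraries with the highest miR-181d-5p.

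The arms of a hairpin were then compared within libraries. miR-181c-3p made up 3.11% ± 0.466 of the counts of its hairpin in controls and 2.96% ± 0.516 after LPS. The difference between its arms changed by -0.07 on the log2 scale (SE 0.22, limma adjusted p = 0.907 over 100 hairpins, 95% interval -0.55 to 0.40). In that fit 12 of 100 hairpins passed, or 12%. For miR-181d no such comparison could be made, its 3p arm having 0 counts.

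The ratio of arms of miR-181b did not pass a test for a change. It was examined after its values were seen, by adding to the fit 11 arms that 2 hairpins encode, each against the sum of its locus-specific partners. miR-181b-5p over the summed miR-181b 3p arms was 6.79, 8.05 and 7.2 in controls and 9.31, 9.23 and 10.5 after LPS. The groups do not overlap, which held for 21.6% of the 111 arm ratios of that fit. The 3p side changed by -0.39 relative to the 5p side on the log2 scale (SE 0.20, 95% interval -0.83 to 0.05). The limma adjusted p was 0.361, and 11.7% of the 111 passed. In the same fit miR-181a changed by -0.04 (SE 0.34, adjusted p = 0.957). The 3p side of miR-181b rests on 35 to 71 counts per library and in effect on chromosome 1 alone, whereas miR-181b-5p can come from both loci.

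**Figure D4:**
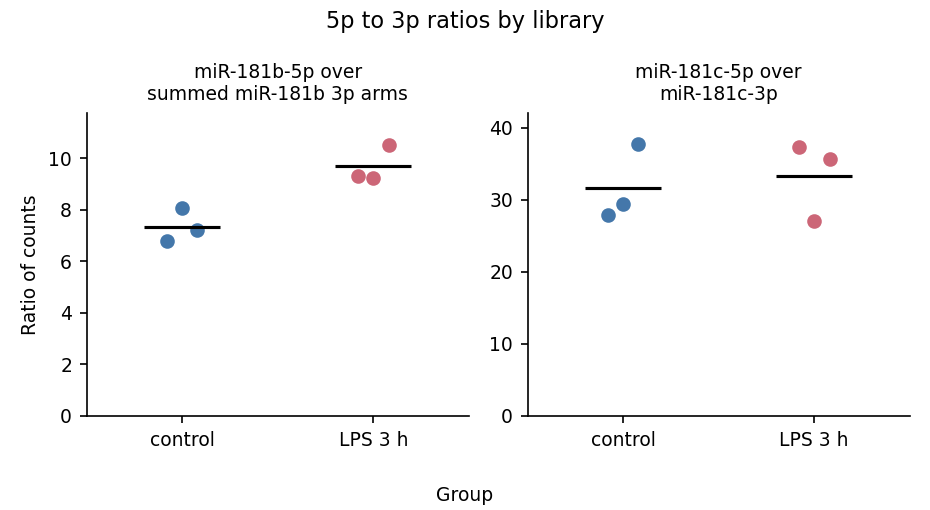
Ratios of 5p to 3p counts for miR-181b and miR-181c, 1 point per library and a bar at the group mean, with axes starting at 0. For miR-181b the LPS points (9.23 to 10.5) lie above the control points (6.79 to 8.05), a difference that did not pass the limma fit, and for miR-181c the groups overlap.

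In the deposited counts, the balance of arms was reversed between the a and b hairpins of the same loci. Both loci encode miR-181a-5p and miR-181b-5p, and how such reads were counted is not given. The ratios below therefore need not be the balance of arms in the cells. miR-181b-5p exceeded its summed 3p arms by 7.35 ± 0.641 to 1 in controls. miR-181a-5p, encoded by the neighbouring hairpins, was outnumbered by its summed 3p arms by 75.9 ± 18.4 to 1 in controls and by 79.5 ± 14.3 to 1 after LPS. The summed 3p arms of miR-181a had 6161 counts over the 6 libraries and miR-181a-5p had 80.

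Other arms with the same layout give the context for this. In the RefSeq table, 25 arms that several hairpins encode have a locus-specific partner arm on each hairpin. In 12 of them the partners summed to at least 60 counts over the 6 libraries. The shared arm was below its partners in 5 of the 12 and above them in 7. miR-181a-5p had the lowest ratio of the 12, at 0.013, and miR-7a-5p followed at 0.0518. miR-181b-5p, at 8.3, stood near let-7c-5p (7.97) and miR-128-3p (9.73). These comparators, and those labelled in the plot of shared arms, were chosen after their values were seen.

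The stretch of sequence that 2 hairpins share beyond the arm could be read for 11 of these 12 arms. Of the 5 arms with 0 shared bases after them, miR-181b-5p included, 4 were above their partners. Of the 6 with 1 or more shared bases, miR-181a-5p included, 3 were above. The minimum of 60 partner counts was not part of the planned design, and arms under it are left out of this tally. No reading is drawn from the tally. The part of read assignment in the scarcity of miR-181a-5p was not tested, and its deposited level may differ from its level in the cells.

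**Figure D5:**
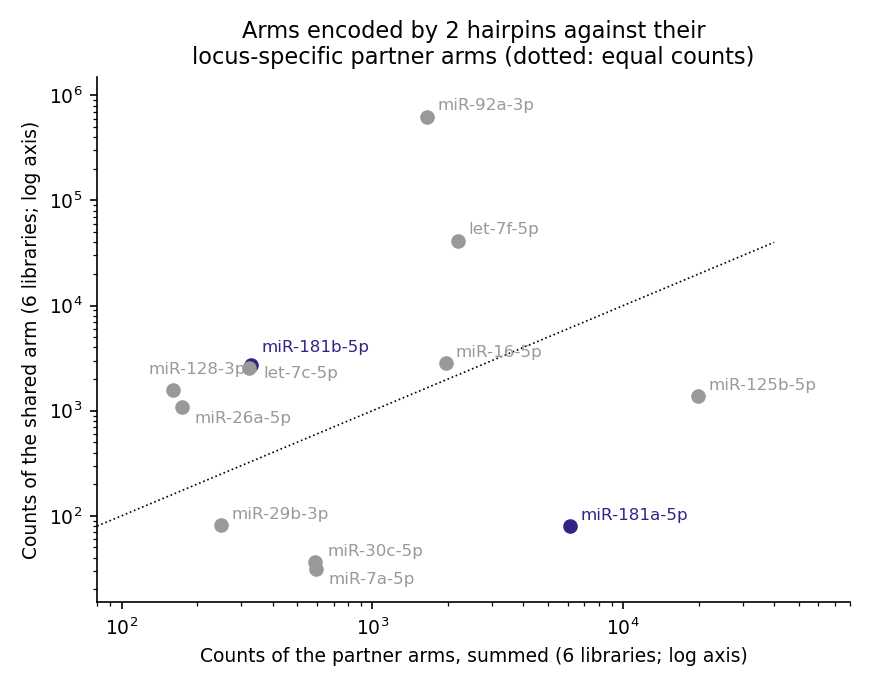
Counts of 12 arms that 2 hairpins encode against the summed counts of their locus-specific partner arms, over 6 libraries, both axes logarithmic and the dotted line marking equal counts. miR-181a-5p (80 against 6161) lies farthest below the line and miR-181b-5p (2732 against 329) lies above it.

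The miRNAs most like miR-181c-5p across libraries were outside the family. The measure was the root mean square difference of log2 CPM, each profile centred on its own mean over the 6 libraries. It was 0.042 for miR-188-3p (10.77 to 13.24 CPM), 0.081 for miR-99b-5p (12790 to 15310 CPM) and 0.086 for miR-148b-3p (3161 to 4251 CPM). The median over all tested miRNAs was 0.243. The other 7 tested members had values from 0.149 (miR-181b-5p) to 0.24 (miR-181a-5p), which placed them at ranks 54 to 176. Arms with few counts have more counting noise in this measure, and miR-188-3p is itself at low CPM. The nearest miRNAs were picked as the smallest values among all tested non-members, so their closeness was not tested.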

How the data were processed

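The authors deposited 1 table of raw counts per library, with 1 whole number for each of 1907 mature miRNAs. Novoalign, SAMtools 0.1.19 and GRCm38.p1 are named per the submitters' processing notes, while the sources used here give neither the counting tool nor how multiply matching reads or strand were treated. Counts were tested with edgeR 4.0.16 (R 4.3.3): TMM factors, filterByExpr with a minimum count of 10, and the quasi-likelihood F test, with Benjamini-Hochberg adjustment over 357 miRNAs and a threshold of 0.05. The SE is the log2 fold change divided by the square root of F. Arm differences used limma 3.58.1 on log2 CPM (prior count 2) with a variance trend. Locus ratios used a pseudocount of 0.5 and two-sided exact permutation tests. Sequences and coordinates are from RefSeq tables of GRCm38.p6; 1623 of the mature names matched. Both fits were also run on simulated counts with planted changes larger than the members' estimates, and no result given here rests on that run. Intervals and limits cover these libraries and counting error only, since reads carry no molecular identifiers. Replicates all differed by more than counting noise (chi-square of 53 or more per degree of freedom over miRNAs with 10 or more counts), so each counted as 1 sample. Alternatives were other scalings, filters, DESeq2 1.42.0, limma-voom, a replicate block and leaving out each library. All 9 members are named, with the 3 miRNAs nearest to the most abundant member and the arms of miR-155 and miR-146a as references. Members and lists were chosen with earlier results of these data known.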

Additional observations from a re-analysis of the deposited data

How the results depend on the processing

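No member was called in any alternative fit. The 8 tested members shared these fits, which gave 111 member values with a lowest adjusted p of 0.408. In 100 of these the direction was kept and in 11 it turned. With upper-quartile factors and with library totals alone, the log2 fold change of miR-181c-5p was -0.026 and -0.017, and with no filter that of miR-181d-5p was 0.004; the cause was not tested. Leaving out 1 library moved miR-181a-5p between -0.39 and -0.11, miR-181b-5p between -0.085 and 0.20, miR-181c-5p between -0.03 and 0.084, miR-181c-3p between -0.27 and 0.10 and miR-181d-5p between -0.16 and 0.14. It moved the arm difference of miR-181c between -0.21 and 0.01 and that of miR-181a between -0.19 and 0.14. For miR-181b the arm difference stayed between -0.456 and -0.333 and passed in no alternative. The chromosome 1 to chromosome 2 ratio moved between -0.156 and 0.076. The count of all changed miRNAs was 18, from 11 (without LPS replicate 3) to 18 when a library was left out, and from 13 (upper-quartile factors) to 26 (no filter) under the other alternatives, with 21 by DESeq2. Without a variance trend 7 hairpins were called unequal, against 12. Correlations of deviations for equal replicate numbers were 0.025, 0.144 and -0.04, with 1 of 3 control libraries nearest its own number. With 3 libraries per group this check cannot exclude a pairing, which the labels do not state. The replicate block gave 17 changed miRNAs and 0 members, and for the locus ratios -0.06, -0.17 and -0.11. With a minimum count of 50, miR-181a-5p was not tested. Its depth of 10 to 17 counts per library limits what can be said of it.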
